A study of Mus musculus with 6 samples.

Results

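B cells of the mouse liver were described across 6 single-cell libraries, 3 from mice given vehicle and 3 from mice given ginkgetin. The cells were selected on measured values: a cell with fewer than 5000 genes and under 5% mitochondrial UMIs (unique molecular identifiers, each counting 1 captured transcript) was a B cell with at least 4 UMIs of Cd79a, Cd79b and Ms4a1 together, at most 1 UMI of Cd3d, Cd3e and Cd3g together, at most 1 UMI of Siglech and fewer than 4 UMIs of Mzb1, Derl3 and Tnfrsf17 together. This rule kept 2171 of 27544 cells, which were 287, 244 and 280 cells in vehicle replicates 1, 2 and 3 and 208, 788 and 364 cells in ginkgetin replicates 1, 2 and 3. The libraries hold liver non-parenchymal cells, the cells of the liver other than hepatocytes, from male C57BL/6J mice bought at 8 weeks of age and fed a high-fat diet for 24 weeks to induce nonalcoholic steatohepatitis (NASH). Vehicle (DMSO) or ginkgetin, a plant biflavone, at 10 mg/kg/day was given intragastrically over the last 8 weeks. No chow-fed library was analysed here, so both groups share the diet. The labels do not say whether a library is 1 mouse, so p-values measure only the spread between these libraries.

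B cells are the lymphocytes that carry a membrane immunoglobulin as antigen receptor, which signals through the chains encoded by Cd79a and Cd79b. In the liver they circulate through the sinusoids beside macrophages and endothelial cells, present antigen on MHC class II and can mature into plasma cells. Resting recirculating B cells enter lymphoid follicles by chemokine receptors, and engagement of the antigen receptor induces immediate-early genes of the Egr and Nr4a families.

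The label fitted most, but not all, of the cells. Ebf1, a transcription factor that specifies the B lineage and that the rule did not use, had a UMI in 92.7%, 94.7% and 88.6% of the B cells of vehicle replicates 1 to 3 and in 98.6%, 96.8% and 98.4% of those of ginkgetin replicates 1 to 3. Summed over the B cells, Ebf1 was at 851 to 1932 CPM (UMIs of the gene per 1000000 UMIs of the summed cells) in the 6 libraries, against 0 to 5.35 CPM in T cells. These were gated by 4 or more Cd3 UMIs and at most 1 UMI of Cd79a, Cd79b and Ms4a1 together. Other B lineage genes outside the rule lay the same way. Pax5, which maintains B cell identity, was at 127 to 623 CPM in B cells and 0 to 2.85 CPM in T cells, and Fcmr, the IgM Fc receptor, was at 332 to 675 CPM against 0.221 to 3.92 CPM. Ly6d and Spib were as high in cells gated by Siglech (1585 to 2451 CPM and 182 to 555 CPM) as in B cells (1011 to 2078 CPM and 83.5 to 271 CPM), the gate for plasmacytoid dendritic cells, so these genes did not separate both kinds of cell. As the levels of gated cells follow the gate, they are a description and were not tested.

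A set of deep cells reached 4 marker UMIs at a low density, and held 43 of the 100 cells without an Ebf1 UMI. In 83 of the 2171 cells, Cd79a, Cd79b and Ms4a1 together made up fewer than 10 of every 10000 UMIs. These were 14, 10 and 37 cells in the vehicle replicates and 0, 19 and 3 cells in the ginkgetin replicates. Being deep, they held 16.8%, 21.6% and 44.7% of all B cell UMIs in the vehicle libraries and 0%, 6.77% and 2.84% in the ginkgetin libraries. Their median depth in the vehicle libraries was 11244, 14965 and 19344 UMIs, against 2698, 2252 and 3324 UMIs in the other B cells of the same libraries. Ebf1 had a UMI in 5 of 14, 5 of 10 and 9 of 37 of these vehicle cells, and 11, 9 and 36 of them carried 4 or more UMIs of a macrophage marker list. In ginkgetin replicate 2, by contrast, all 19 such cells had an Ebf1 UMI. The results below are therefore given for all cells of the rule and for the 2088 cells at 10 or more marker UMIs per 10000, called marker-dense B cells, a limit chosen after these cells had been seen. Counting every other lineage, cells with 4 or more UMIs of another lineage's markers made up 19.5%, 20.5% and 66.1% of the B cells of the vehicle replicates and 6.25%, 36.9% and 14% of those of the ginkgetin replicates. In vehicle replicate 3 these were 160 of 280 cells by the hepatocyte list and 52 by the macrophage list. In ginkgetin replicate 2 they were 157 of 788 by the endothelial list and 138 by the plasma cell list. The plasma cell list holds Mzb1, at 141 to 360 CPM in all B cells of the rule. The limit of 4 UMIs was not scaled to depth.

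**Figure D1:**
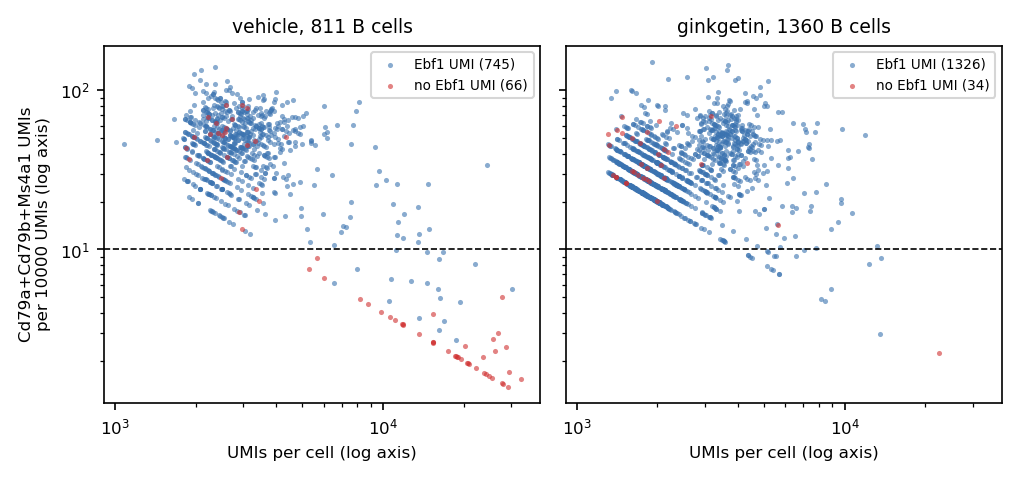
Each point is 1 B cell, with its UMIs on the horizontal log axis and the density of the marker UMIs of the rule on the vertical log axis, in 811 vehicle cells (left) and 1360 ginkgetin cells (right). Blue cells had an Ebf1 UMI and red cells had none. Below the dashed line at 10 per 10000 lie 61 vehicle cells, 42 of them without Ebf1, and 22 ginkgetin cells, 1 of them without Ebf1.

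The edge of the rule showed the same split. At exactly 4 marker UMIs there were 15, 16 and 20 cells in the vehicle replicates, of which 46.7%, 68.8% and 5% had an Ebf1 UMI. The corresponding 37, 196 and 1 cells of the ginkgetin replicates had one in 100%, 96.9% and 100%. Just outside, at 3 marker UMIs, lay 36, 16 and 27 vehicle cells, with Ebf1 in 8.33%, 37.5% and 0%, and 50, 132 and 5 ginkgetin cells, with Ebf1 in 96%, 89.4% and 60%. Thus the limit of 4 UMIs took in cells without Ebf1 in vehicle replicate 3 and left out cells with Ebf1 in ginkgetin replicates 1 and 2, the shallowest libraries, whose B cells had medians of 1899.5 and 1996 UMIs.

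The libraries also fell into 2 barcode sets. Replicates 1 and 2 of both groups shared 23 to 85 cell barcodes with each other, and the libraries of replicate 3 shared 10, whereas libraries of different sets shared at most 1. At most 2 barcodes of B cells were shared by any pair. Of 19349 genes in every table, 946 had UMIs only in replicates 1 and 2 and 2253 only in replicate 3, among them all 118 immunoglobulin genes. Tests across genes therefore used the 16150 genes seen in both sets, and were fitted with group alone and with group and barcode set. Median mitochondrial shares of B cells were 2.73% to 3.97% in the vehicle libraries and 3.46% to 4.23% in the ginkgetin libraries.

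B cells made up a larger mean share of the kept cells after ginkgetin, but the libraries of both groups overlapped. The shares were 4.77%, 7.31% and 6.77% in the vehicle replicates and 5.95%, 11.4% and 9.99% in the ginkgetin replicates. Ginkgetin replicates 2 and 3 lay above all vehicle libraries and replicate 1 lay among them. The means were 6.28% ± 1.34 and 9.11% ± 2.82 (SD, n = 3 each; two-sided exact permutation p = 0.30, where the smallest p that 3 against 3 allows is 0.10). The difference was 2.63 percentage points within replicates 1 and 2 and 3.22 within replicate 3. Among marker-dense cells the means were 5.81% ± 1.24 and 8.99% ± 2.7 (exact permutation p = 0.20). When cells were thinned to 1000 UMIs before gating, with the marker minimum lowered to 2 UMIs and the 23 vehicle and 112 ginkgetin cells under 1000 UMIs left out, they were 6.13% ± 1.18 and 9.95% ± 2.49, and the exact permutation p was 0.10. With 6 or more marker UMIs required, the difference was 1.03 percentage points (exact permutation p = 0.90), and within replicates 1 and 2 it was -0.32.

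Against T cells, the difference was less regular. There were 0.237, 0.431 and 0.337 B cells per T cell in the vehicle replicates and 0.208, 1.06 and 0.491 in the ginkgetin replicates. The mean log2 ratio was 0.55 higher after ginkgetin (exact permutation p = 0.50), and without ginkgetin replicate 2, the single library with more B than T cells, it was -0.024. A share counts cells that were captured, so more B cells and fewer other cells cannot be told apart.

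**Figure D2:**
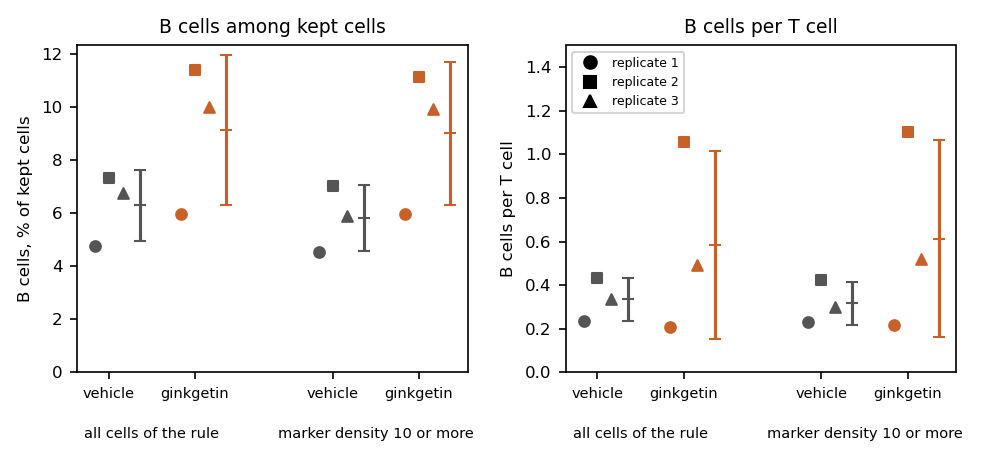
The share of B cells among kept cells in percent (left) and the number of B cells per T cell (right) are shown for each library, for all cells of the rule and for marker-dense cells, with mean and SD bars beside the points (n = 3 per group). Ginkgetin replicate 2 (square) is the highest library in both panels, at 11.4% and 1.06 in all cells of the rule.

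Markers of B cell subsets were compared next. To compare libraries of different depth, each cell was thinned to 1000 UMIs and the share of cells with a UMI of a gene was taken, for which no cell had to be left out. Fcer2a, encoding the low-affinity IgE receptor CD23 of follicular B cells, was seen in 20.2%, 20.9% and 23.9% of the vehicle B cells and in 16.3%, 22.7% and 38.2% of the ginkgetin B cells. Cr2, the complement receptor of follicular and marginal zone cells, was seen in 9.41%, 9.84% and 13.6% and in 8.65%, 8.5% and 19.2%. Vpreb3, highest in immature and transitional B cells, was seen in 18.8%, 24.2% and 21.8% and in 19.7%, 20.1% and 19.2%. For these 3 genes the groups overlapped in cells thinned to 1000 UMIs, and at most 0.402% of the T cells of any library had a UMI of any of them. Ginkgetin replicate 3 had the highest shares of Fcer2a and Cr2, and without it both shares were lower in the ginkgetin group than in the vehicle group. The Vpreb3 shares did not overlap when thinned to 2000 UMIs, at 31.7%, 35.1% and 32.1% against 25.3%, 25.9% and 30.2%, nor with other-lineage cells left out, and were lower after ginkgetin (exact permutation p = 0.10 each). Thinning to 2000 UMIs left out 591 B cells. The Vpreb3 shares overlapped in marker-dense cells thinned to 1000 UMIs and without thinning (exact permutation p = 0.20 and 0.50). Cd5, carried by B-1a cells, was found in at most 0.481% of the B cells of any library and, without thinning, in at most 1.07%, while 5.63% to 12.3% of T cells had a UMI after thinning. Mki67, of dividing cells, was seen in at most 0.714% of B cells and, without thinning, in at most 2.5%.

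Of 22 genes compared in this way, 4 did not overlap between groups: Hspa1a, Apoe, Cd83 and Cd9. For comparison, the CPM of 951 of 6594 genes tested in marker-dense cells (14.4%) did not overlap. All 4 were lower after ginkgetin, at the smallest exact permutation p the design allows (0.10, or 0.55 adjusted over the 22 genes). Cd83, an activation marker of B cells that stabilises MHC class II at the surface, was seen in 19.2%, 20.5% and 27.9% of vehicle B cells and in 12%, 6.47% and 16.2% of ginkgetin B cells. In T cells the Cd83 shares were low and also did not overlap, at 0.908%, 1.24% and 3.01% in the vehicle libraries and 0.3%, 0.402% and 0.27% in the ginkgetin libraries. When cells were thinned to 2000 UMIs instead, or not thinned, the Cd83 shares overlapped (exact permutation p = 0.20 and 0.30). Cd9, a tetraspanin of marginal zone and B-1 cells, was seen in 3.48%, 2.05% and 6.43% of vehicle B cells and in 0%, 1.52% and 1.1% of ginkgetin B cells. Without thinning the Cd9 shares were 9.76%, 8.2% and 17.9% against 2.4%, 4.19% and 3.85%. The thinned groups overlapped once the low-density cells were left out, and the Cd9 share in T cells, up to 3.75%, was of like size.

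Immunoglobulin genes could be described only in replicate 3, which is 1 library per group with no test. Ighm had a UMI in 92.5% of the B cells of vehicle replicate 3 and 99.2% of those of ginkgetin replicate 3, but also in 27.1% and 58.4% of the T cells, at median depths of 4555 and 5991 UMIs per T cell against 3497.5 and 3673.5 UMIs per B cell. Ighd, which marks mature naive B cells, had a UMI in 78.6% and 96.2% of B cells and in 1.44% and 3.91% of T cells. Thinned to 1000 UMIs, the Ighd shares of B cells were 45.7% and 75.8%, and among marker-dense cells they were 51.9% and 76.2%. A cell with 3 or more light-chain UMIs was counted as lambda where Iglc1, Iglc2 and Iglc3 together exceeded Igkc. This held for 19 of 258 B cells in the vehicle library (7.36%, exact 95% interval 4.49% to 11.3%) and 23 of 363 in the ginkgetin library (6.34%, 4.06% to 9.36%). The other, kappa, cells still had a median of 7 lambda UMIs in each library beside 30 and 26 Igkc UMIs. Only 3 of 257 and 3 of 363 cells had more UMIs of a switched isotype (IgG or IgA) than of Ighm and Ighd together (1.17%, 0.241% to 3.37%, and 0.826%, 0.171% to 2.4%). By the same count, 16 of 89 and 24 of 210 T cells were switched (18% and 11.4%), 16 and 23 of them with Igha highest. The intervals of the B cell shares overlapped between libraries and cover counting error only.

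Across genes, the number of calls depended on the 83 low-density cells. With group as the only term, edgeR, a negative binomial model of summed counts, called 296 of 7700 genes at an adjusted p under 0.05 and a fold over 2, with 0.571% of tested genes called higher after ginkgetin and 3.27% called lower. With the barcode set as a second term it called 653 (2.53% higher and 5.95% lower). In marker-dense cells, group alone gave 0 calls of 6594 genes, with 870 at an unadjusted p under 0.05 and a lowest adjusted p of 0.11. Group and barcode set gave 75 calls in these cells, 22 higher (0.334%) and 53 lower (0.804%), of which 64 were among the 653. In T cells the same terms gave 34 calls of 9800 genes (0.0408% higher and 0.306% lower). Of the 75 genes, 74 were tested in T cells, and 70 of these had a T cell fold change of the same sign. The share of all genes with the same sign was not taken. In the test of B against T cell change, given last, 3 of the 75 were called. No gene was called in marker-dense B cells when either vehicle replicate 3 or ginkgetin replicate 3 was left out. With the barcode set as a term, both of these fits leave 1 library in its set, so the group term rests on replicates 1 and 2. The values below therefore rest on the term for the barcode set, in marker-dense cells unless stated, and every adjusted p is from edgeR's quasi-likelihood test.

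**Figure D3:**
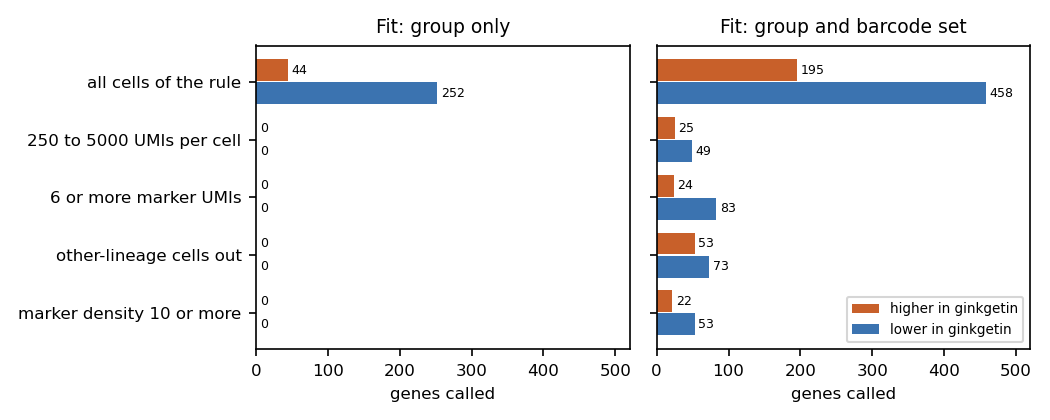
Bars give the number of genes called higher (orange) and lower (blue) in ginkgetin B cells under 5 choices of cells, for the fit with group alone (left) and with group and barcode set (right). The fit with group alone called 44 and 252 genes in all cells of the rule and 0 under each of the other 4 choices of cells.

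The 10 genes named for their fitted falls after ginkgetin in all cells of the rule, by the same standard as for the rises below, were Mmp12, Trem2, Atp6v0d2, Gpnmb, Gdf3, Fcgr1, Lpl, Clec4b1, C1qb and Fabp7, several of which are known from lipid-associated macrophages. The B cells of each ginkgetin library held at most 6 UMIs of these genes except Lpl, at 2, 20 and 11 UMIs, and C1qb, at 5, 77 and 52 UMIs. The genes near 0 passed the expression filter through the vehicle libraries, and nothing is read from their order. Trem2, the lipid receptor of such macrophages, was at 190, 275 and 761 CPM in the vehicle B cells and at 2.25, 0.539 and 1.36 CPM in the ginkgetin B cells. In marker-dense cells it was at 28, 12.1 and 53.6 CPM against 2.25, 0.578 and 1.4 CPM, and in T cells at 13, 12.6 and 11.3 CPM against 0.547, 0.356 and 0.411 CPM. The ginkgetin values of Trem2 are 1, 1 and 2 UMIs in B cells and 2, 1 and 2 UMIs in T cells, and no fold is given. C1qb, of the complement C1q complex of macrophages, fell by 5.65 on the log2 scale in all cells of the rule, by 2.79 in marker-dense cells and by 2.55 in T cells (adjusted p = 4e-05, 0.0069 and 0.048). For C1qb in marker-dense cells, the difference between the B and the T cell change was not past the threshold (-0.56 on the log2 scale, adjusted p = 0.82).

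The macrophage marker list moved with these genes. Its 10 genes, none at 0, summed to 4791 to 19394 CPM in the B cells of the vehicle libraries and to 106 to 528 CPM in those of the ginkgetin libraries. In marker-dense cells the sums were 392 to 2496 CPM against 106 to 449 CPM, and in T cells 375 to 466 CPM against 82.7 to 185 CPM. Of the tested macrophage markers, 9 of 9 were called lower in all cells of the rule and 3 of 8 in marker-dense cells. Apoe, which hepatocytes and macrophages express strongly, had a UMI in 64.1% to 71.1% of vehicle B cells and 20.2% to 43.8% of ginkgetin B cells thinned to 1000 UMIs, beside 42.2% to 50.5% and 9.31% to 36.5% of T cells. The part of captured free RNA or of joined cells in these values was not tested.

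Among the rises were genes of liver sinusoidal endothelial cells. Ptprb, Ehd3, Lifr, Kdr, Clec4g, Aqp1, Plpp1, Fam167b and Adgrf5, with the microRNA host transcript Mir142hg, were the 10 called genes with the largest rises in all cells of the rule that reached 20 CPM and did not overlap between groups. Clec4g, a lectin of sinusoidal endothelium, was at 14, 12.1 and 18.2 CPM in marker-dense vehicle B cells and at 33.8, 131 and 63.1 CPM in ginkgetin B cells (log2 fold change 2.32 ± 0.43 (SE), adjusted p = 0.033). In T cells Clec4g was at 14.8, 14.8 and 12.2 CPM and at 33.6, 93.7 and 32.2 CPM (1.85, adjusted p = 0.1). The hyaluronan receptor gene Stab2 lay likewise, at 2.33 to 11.8 CPM against 24.8 to 47.4 CPM in marker-dense B cells, where the vehicle values are 2, 3 and 11 UMIs and no fold is given, and at 4.86 to 6.49 CPM against 16.1 to 53.8 CPM in T cells. The 10 endothelial markers, none at 0, summed to 121 to 257 CPM in marker-dense vehicle B cells and 279 to 1180 CPM in ginkgetin B cells, and to 84 to 95.4 CPM and 191 to 945 CPM in T cells. Of 9 tested endothelial markers, 7 were called higher in all cells of the rule and 4 in marker-dense cells. Ginkgetin replicate 2 was the highest library for Clec4g and Stab2 in both cell types, and the part of free endothelial RNA was not tested.

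The T cell list, of which 0 genes passed the filter, summed to 4.74 to 9.69 CPM in vehicle B cells and to 23.9 to 57.7 CPM in ginkgetin B cells, without overlap and at a low level in both. It holds Cd3d, Cd3e and Cd3g, which the rule limits per cell, so nothing is read from these sums. The plasma cell and dendritic cell lists also hold genes of the rule (Mzb1, Derl3, Tnfrsf17 and Siglech). The hepatocyte list summed to 358 to 959 CPM and 29.3 to 656 CPM, with 0 of 7 tested genes called. The NK, dendritic cell, neutrophil, plasma cell, stellate cell, cholangiocyte and erythroid and platelet lists had 0 genes called in marker-dense cells, but only 1 to 4 genes of each were tested. In all cells of the rule 1 gene each of the dendritic cell, cholangiocyte and erythroid and platelet lists was called, lower after ginkgetin.

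Among genes of B cells themselves, the antigen receptor machinery did not pass the test. Of 26 tested genes of the B cell receptor and its co-receptors, from which Cd79a and Cd79b were left out because the rule used them, 0 were called in marker-dense cells, with a median log2 fold change of 0.05 against -0.003 over all 6594 genes. In all cells of the rule 2 of them were called, both lower. These were Cd81, a tetraspanin, and Cd72, an inhibitory co-receptor. Cd81 was at 305, 258 and 229 CPM in marker-dense vehicle cells and at 124, 139 and 168 CPM in ginkgetin cells, without overlap and under the fold of 2 (-0.93 ± 0.2, adjusted p = 0.044). The median of the 26 was 0.34 in all cells of the rule, against 0.03 over all genes.

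Most transcription factors of the B lineage had a fold change above 0. Of 28 tested, 21 had a fold change above 0 in marker-dense cells, with a median of 0.25 and 0 called. In all cells of the rule the median was 0.63, Pax5, Ets1, Bach2 and Irf4 were called higher and Id3 was called lower. In T cells 14 of 24 genes of this list had a fold change above 0 (median 0.2). For the marker-dense B cell change minus the T cell change, 16 of 30 lay above 0 (median 0.047). Bach2, which holds B cells back from plasma cell fate, was at 92.1, 79.8 and 147 CPM in marker-dense vehicle cells and at 162, 168 and 307 CPM in ginkgetin cells. The groups did not overlap, and the log2 fold change of 0.91 ± 0.2 had an adjusted p of 0.047 but was under the fold of 2. Pax5 was at 148, 172 and 256 CPM against 257, 289 and 640 CPM (0.9 ± 0.2, adjusted p = 0.052).

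Notch2 and St6gal1 rose in marker-dense B cells. Notch2, the receptor that directs marginal zone B cell development, was at 81.6, 90.2 and 57.9 CPM in the vehicle libraries and at 126, 227 and 154 CPM in the ginkgetin libraries (log2 fold change 1.12 ± 0.24, adjusted p = 0.044). St6gal1, the sialyltransferase that makes the ligand of CD22, was at 40.8, 48.6 and 66.4 CPM against 72.1, 122 and 177 CPM (1.19 ± 0.23, adjusted p = 0.038). Neither gene overlapped between groups. Neither was among the 14 genes, given below, whose change differed between marker-dense B and T cells. Of the 13 tested genes of the marginal zone and B-1 list, Tppp3, encoding a tubulin-binding protein, was the 1 called, lower after ginkgetin, and the median of the list was -0.004.

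Cxcr4, the receptor for CXCL12 that retains B cells in bone marrow and tissue, rose after ginkgetin. It was at 105, 142 and 325 CPM in the marker-dense B cells of the vehicle replicates and at 336, 237 and 827 CPM in those of the ginkgetin replicates (log2 fold change 1.19 ± 0.24, adjusted p = 0.039). Within each barcode set the ginkgetin libraries lay above the vehicle libraries, by 1.2 on the log2 scale in replicates 1 and 2 and by 1.35 in replicate 3, whereas over all 6 libraries the groups overlapped. In T cells Cxcr4 was at 48.8, 55.8 and 136 CPM against 56.9, 42.8 and 79.9 CPM. It was the 1 of 22 tested genes of the homing and adhesion list, and the 1 of 19 of the follicular and recirculating list, to be called. The medians of these lists were 0.03 and 0.14.

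Genes of activation moved in both directions. Of 27 tested genes of the activation and NF-kB list in marker-dense cells, Egr1 was called higher and Cd83 lower, and 17 had a fold change below 0 (median -0.16). Egr1, an immediate-early gene of antigen receptor signalling, was at 9.33, 22.5 and 43.9 CPM in the vehicle replicates and at 94.6, 82.1 and 111 CPM in the ginkgetin replicates. The groups did not overlap (log2 fold change 1.89 ± 0.35, adjusted p = 0.032), although in all cells of the rule thinned to 1000 UMIs the shares with an Egr1 UMI did, at 1.39%, 2.46% and 6.07% against 6.73%, 6.09% and 4.95%. The thinned shares of marker-dense cells overlapped too, at 1.47%, 2.56% and 5.35% against 6.73%, 5.85% and 4.71%. With other-lineage cells left out they did not overlap. In T cells Egr1 was at 17.7, 23 and 38.9 CPM against 32.3, 50.6 and 42.7 CPM (0.69, adjusted p = 0.31), and the T cell shares did not overlap, at 1.49%, 2.3% and 2.65% against 3.4%, 5.76% and 3.78%. The difference between the B and the T cell change of Egr1 was 1.21 ± 0.33 (adjusted p = 0.24). Cd83 was at 207, 279 and 384 CPM against 122, 69.4 and 213 CPM (-1.27 ± 0.26, adjusted p = 0.042), with ginkgetin replicate 3 just inside the vehicle range, and its change in T cells was -1.73 (adjusted p = 0.085). Nr4a1, a further target of antigen receptor signalling, was at 66.4, 74.6 and 116 CPM against 194, 137 and 166 CPM, without overlap but not past the threshold (0.9 ± 0.27, adjusted p = 0.096).

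The chaperone gene Hspa1a fell in B cells and in T cells. Hspa1a, an inducible HSP70 chaperone gene, was at 840, 826 and 604 CPM in marker-dense vehicle B cells and at 92.3, 16.8 and 36.5 CPM in ginkgetin B cells (log2 fold change -4.19 ± 0.46, adjusted p = 0.0027). In T cells Hspa1a was at 712, 761 and 374 CPM and at 44, 16.4 and 34.5 CPM (-4.24, adjusted p = 0.0086), and the difference between both changes was 0.01 (adjusted p = 1). With cells thinned to 1000 UMIs, Hspa1a had a UMI in 39%, 36.5% and 27.5% of vehicle B cells and in 5.29%, 1.65% and 1.92% of ginkgetin B cells. The T cell shares were 34.6%, 36% and 19.6% against 4.7%, 1.47% and 2.7%.

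The chaperone genes Hspa1b and Hspa8 and the immediate-early genes Jun and Atf3 were also called lower in marker-dense cells, which made 5 of 24 tested genes of the immediate-early and heat shock list. Hspa8, the constitutive HSP70, was at 2711, 1951 and 1839 CPM against 1014, 515 and 856 CPM (log2 fold change -1.49 ± 0.29, adjusted p = 0.037). Jun was at 233, 276 and 386 CPM against 85.6, 114 and 188 CPM (-1.29 ± 0.21, adjusted p = 0.027). The median of the 24 genes was -0.75 in B cells and -0.75 in T cells, where Jun, Hspa1a and Hspa1b were called lower. Jun and Atf3 thus lay on the opposite side from Egr1. Ubb, a polyubiquitin gene, which is induced by heat, fell as well, from 2143, 2272 and 2182 CPM to 1068, 845 and 857 CPM (-1.31 ± 0.24, adjusted p = 0.033).

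Most interferon-response genes had a fold change below 0, with 1 called. In marker-dense cells 23 of 24 tested genes had a fold change below 0 (median -0.69), and Ly6a, a surface antigen induced by interferon, was at 502, 350 and 256 CPM against 194, 198 and 161 CPM (log2 fold change -1.02 ± 0.21, adjusted p = 0.039). In all cells of the rule 11 of 29 genes were called lower (median -0.97), among them Isg15, Irf7 and Ifit3. In T cells 31 of 36 had a fold change below 0 (median -0.37) and 0 were called.

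The same held for genes of antigen presentation. Of 15 tested genes of MHC class II presentation in marker-dense cells, 14 had a fold change below 0 (median -0.5), and Ctss, the protease that trims the invariant chain, was called. Ctss, which macrophages also express, was at 825, 474 and 634 CPM against 225, 226 and 405 CPM (log2 fold change -1.28 ± 0.24, adjusted p = 0.034). H2-Ab1, the class II beta chain, was at 4535, 3702 and 3406 CPM against 2072, 1591 and 2912 CPM, not past the threshold (-0.9 ± 0.26, adjusted p = 0.089). In T cells 11 of 13 genes of this list lay below 0 (median -0.81) and 0 were called. For MHC class I presentation 18 of 21 genes lay below 0 (median -0.57) and 0 were called.

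Genes of glycolysis, the proteasome and the cytosolic chaperonin were called lower too, in families named after their values had been seen. Of 12 tested glycolysis genes in marker-dense cells, 12 had a fold change below 0 (median -0.91), and Gapdh, Tpi1, Aldoa, Pgam1 and Pkm were called. Gapdh was at 701, 583 and 616 CPM in vehicle B cells and at 313, 274 and 295 CPM in ginkgetin B cells (log2 fold change -1.17 ± 0.21, adjusted p = 0.032). In T cells Gapdh was at 964, 1136 and 897 CPM against 953, 544 and 583 CPM (-0.56, adjusted p = 0.29). Of 37 proteasome subunit genes, 36 lay below 0 (median -0.73) and 5 were called, among them Psma2 and Psmc2. Of 7 subunits of the chaperonin CCT, 7 lay below 0 (median -0.99) and Cct3, Cct4 and Cct8 were called. In T cells 12 of 14, 36 of 37 and 7 of 7 genes of these families lay below 0, with medians of -0.52, -0.5 and -0.57, and 0 were called, with few calls among all T cell genes.

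The remaining lists showed few or no calls in marker-dense cells. Receptors for BAFF and APRIL with survival genes had 0 of 17 called (median -0.16), cytokines and their receptors 0 of 20 (median -0.15), Toll-like receptors and their partners 0 of 12 (median -0.24), immature and transitional genes 0 of 6 (median 0.15) and mitochondrial and ribosomal genes 0 of 19 (median 0.09). Germinal centre and cycling genes had 6 of 14 called lower in all cells of the rule (median -1.07) and 0 of 8 in marker-dense cells (median -0.34). Of 12 genes of atypical and memory B cells, Lgals3, Vim and Apoe were called lower (median -0.07), and of 21 genes of lipid and cholesterol handling Apoe and Plin2 were (median -0.03). Lgals3, Apoe and Plin2 are also expressed by lipid-laden macrophages. Of 27 lipid genes in all cells of the rule 9 were called lower and Srebf2 and Fasn higher.

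**Figure D4:**
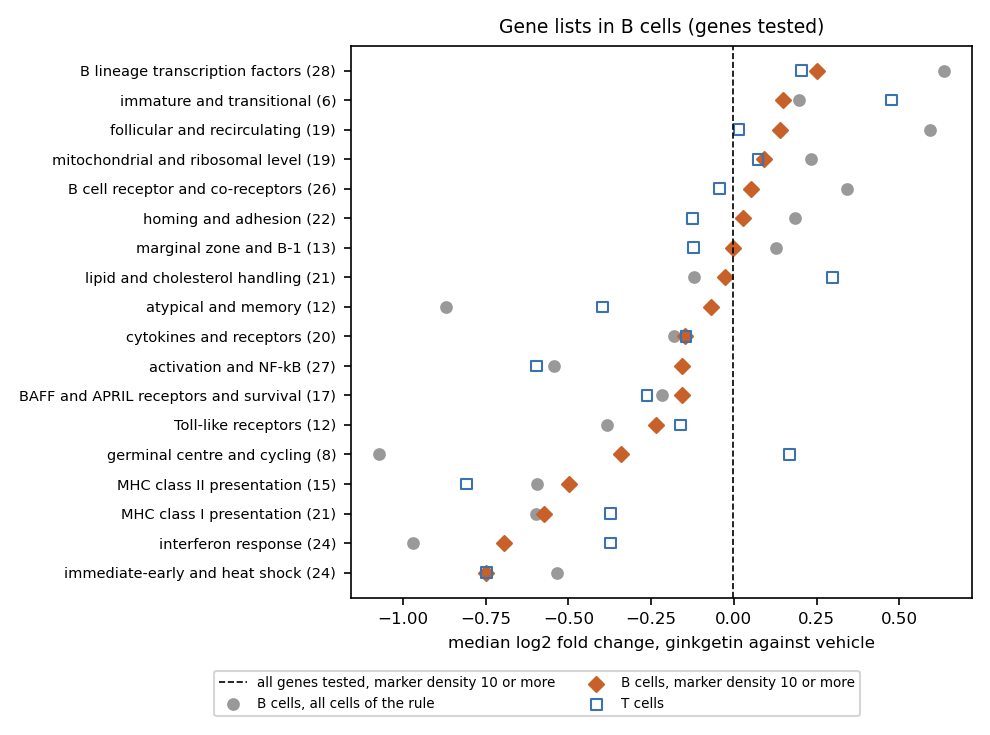
For each gene list with 6 or more tested genes (number in brackets, in marker-dense cells), points give the median log2 fold change of ginkgetin against vehicle in all cells of the rule (grey), in marker-dense B cells (orange) and in T cells (blue squares). The dashed line marks the median of all 6594 genes tested in marker-dense cells, -0.003. The immediate-early and heat shock list was lowest in marker-dense B cells, at -0.75, and B lineage transcription factors were highest, at 0.25.

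Finally, the change in B cells was compared with the change in T cells of the same libraries, which tests whether a change differed between both cell types. In all cells of the rule 162 of 9573 genes differed (0.345% with a B cell change above the T cell change and 1.35% with one below it). The count rested on single libraries, at 3 without ginkgetin replicate 1, 87 without ginkgetin replicate 3, 270, 55 and 65 without vehicle replicates 1, 2 and 3, and 169 without ginkgetin replicate 2. In marker-dense B and T cells 14 of 9257 differed, 12 with the B cell change above the T cell change (0.13%) and 2 with it below (0.0216%), and 11 of the 14 were among the 162.

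Nr4a1, Nfkbid and Cd69, of the activation and NF-kB list, and Cxcr4 were among these 14. Cxcr4 differed by 1.63 ± 0.23 on the log2 scale (adjusted p = 0.014). For Nr4a1 the difference was 1.41 ± 0.2 (adjusted p = 0.014), as T cells were at 46, 63.5 and 74.5 CPM in the vehicle replicates and at 42.1, 39.6 and 41.1 CPM in the ginkgetin replicates, below all of the former. Nfkbid, an NF-kB regulator of the IkB family, was at 25.6, 98.9 and 169 CPM in vehicle B cells and at 209, 199 and 284 CPM in ginkgetin B cells, and differed by 1.11 ± 0.19 (adjusted p = 0.026). For Cd69, an early activation antigen that holds lymphocytes in tissue, B cells were at 135, 180 and 248 CPM and at 191, 143 and 259 CPM, and the groups overlapped. In T cells Cd69 was at 156, 204 and 288 CPM against 134, 63.1 and 127 CPM, and the difference was 1.08 ± 0.17 (adjusted p = 0.014), with a change of 0.0025 in B cells and -1.0 in T cells on the log2 scale. Of 32 tested genes of the list, 3 were called, and 26 had a difference above 0 (median 0.39, against 0.01 over all genes).

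Adam19, a metalloprotease, differed by 1.59 ± 0.29 (adjusted p = 0.034), Cers4, a ceramide synthase, by 1.16 ± 0.22 (adjusted p = 0.05) and Ehd3, which is also expressed by sinusoidal endothelium, by 1.45 ± 0.25 (adjusted p = 0.027). Nrp1, Serpinb6a and Cdk6 were called among marker-dense cells and not among all cells of the rule. The differences of Serpinb6a and Cdk6 were 1.77 and 1.5 in marker-dense cells and -0.66 and 1.25 in all cells of the rule, so that Serpinb6a turned in direction. Nrp1 is also expressed by sinusoidal endothelium. It was at 7, 3 and 6 UMIs in the marker-dense vehicle B cells and at 5, 83 and 37 UMIs in those of ginkgetin. As the vehicle counts are this low, nothing is read from the size of the Nrp1 folds given below for marker-dense cells. For Car2, a carbonic anhydrase gene, the B cell change minus the T cell change was 2.35 ± 0.41 (adjusted p = 0.029), and the erythroid gene Hbb-bt and the histone genes Hist1h1b and Hist1h2ae completed the 14. In all cells of the rule the 10 highest differences that reached 20 CPM without overlap also held Twsg1, Fry, Strbp, Lrba and Gxylt1, and the 10 lowest held the macrophage genes Atp6v0d2 and Gpnmb, with at most 2 UMIs in the B cells of any ginkgetin library. Irf4, a factor of activated B cells and plasma cells, was called in all cells of the rule (1.41 ± 0.31, adjusted p = 0.044) but not in marker-dense cells (0.93, adjusted p = 0.36). Gapdh was called in all cells of the rule, with the B cell change below the T cell change (-1.0 ± 0.21, adjusted p = 0.042), but not in marker-dense cells (-0.55, adjusted p = 0.34). In marker-dense cells no gene of the heat shock list or the glycolysis, proteasome and chaperonin families was called, which does not show that B and T cells changed alike.

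**Figure D5:**
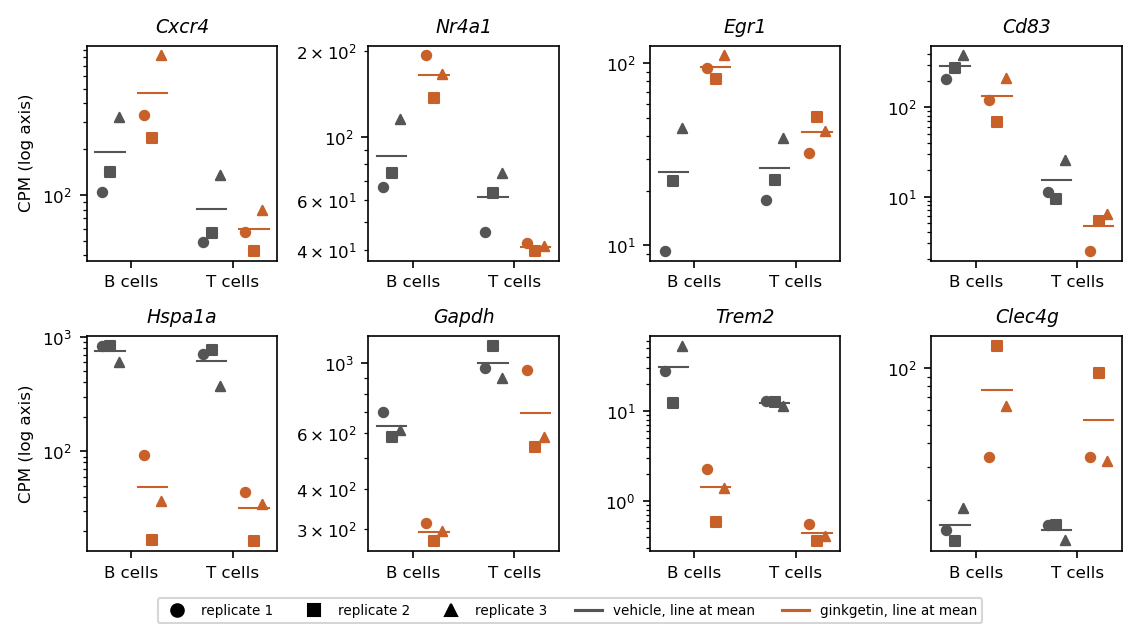
CPM of 8 genes on log axes in marker-dense B cells and in T cells, with 1 point per library (n = 3 per group) and a line at each group mean. The means of Cxcr4 and Nr4a1 were higher after ginkgetin in B cells and lower in T cells, Hspa1a and Trem2 were lower in every ginkgetin library of both cell types, and Gapdh overlapped between groups in T cells and not in B cells.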

How the data were processed

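Non-parenchymal liver cells were profiled in 6 libraries. The labels name both 10X Genomics and a SMARTER kit, and the tables hold cell barcodes. The authors deposited whole-number UMI counts per gene and barcode, not normalized, with at least 501 genes per barcode. The submitters' processing notes name the builds GRCm38 and mm10, and the aligner and annotation are not given in the sources used here. Library totals were 13128697 to 61796882 UMIs, with 444026 to 1854617 UMIs in B cells, so intervals and limits cover counting error only.

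Counts were summed per library over B cells and over T cells (4 or more Cd3 UMIs and the limit on B cell markers given above). Sums were tested by the quasi-likelihood test of edgeR (version 4.0.16, R version 4.3.3) after TMM scaling and its expression filter, with Benjamini-Hochberg adjustment. Models held group, or group and barcode set, and B against T cells used library terms and an interaction. A call needed an adjusted p under 0.05 together with a change above 2-fold. Marker-dense comparisons with T cells also took T cells at 10 or more Cd3 UMIs per 10000, whereas T cell levels and T cell tests alone are of all T cells. Shares used exact permutation tests and exact (Clopper-Pearson) 95% intervals. DESeq2 1.42.0 and limma 3.58.1, other cell filters (250 to 5000 UMIs, which the study's methods name), other gates and left-out libraries were alternatives. No doublet caller was run. On simulated sums of 7613 genes, 89% of log2 changes of 1.5 and 99% of 3 were recovered, with 5 false calls for group alone and 7 with barcode set. The simulation took all cells of the rule, the same chosen dispersion for all genes and changes in well-counted genes only. It had no barcode set effect that differed between genes. It therefore does not give the power of the fits in marker-dense cells. Other software was matplotlib 3.10.9, pandas 2.3.3, scipy 1.17.1 and numpy 2.4.6 under python 3.11.15.

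The cells, lists and tests, and the rise of the B cell share, were chosen or known from earlier results of these data. Genes named are list members and, from each test across genes, up to 10 called genes with the largest rise and fall at 20 CPM or more in the higher group and without overlap. Genes outside this rule (Notch2, St6gal1, Ubb, Car2, Hist1h2ae, Hbb-bt, Hist1h1b and the glycolysis, proteasome and chaperonin genes) were chosen after their values were seen.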

Additional observations from a re-analysis of the deposited data

Results flagged for a closer look

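Each of these genes was singled out because its change between ginkgetin and vehicle differed between B cells and T cells of the same libraries by the interaction test (edgeR). In log2 units, in all cells of the rule and then in marker-dense cells, the difference was 1.83 and 1.63 for Cxcr4, 1.43 and 1.41 for Nr4a1, 1.49 and 1.08 for Cd69, 1.23 and 1.11 for Nfkbid, 1.9 and 1.59 for Adam19, 1.48 and 1.16 for Cers4, and 1.71 and 1.45 for Ehd3. Irf4 was called in all cells of the rule only, at 1.41. Nrp1, Serpinb6a and Cdk6 were called in marker-dense cells only, at 2.81, 1.77 and 1.5, beside 0.48, -0.66 and 1.25 in all cells of the rule. The value of Nrp1 is set against 7, 3 and 6 UMIs in the marker-dense vehicle B cells.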

How the results depend on the processing

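The counts of called genes depended on which cells, genes and libraries were kept. With 250 to 5000 UMIs per cell, with 6 or more marker UMIs, with other-lineage cells left out and in marker-dense cells, the 296 calls with group alone each became 0. With the barcode set as a term the 653 calls became 74, 107, 126 and 75 in that order, and the 162 calls of B against T cells became 26, 10, 32 and 14. Without a filter on genes there were 715, 1048 and 567 calls, and group alone gave 653 once the barcode set was a term. Without 1 library at a time there were 30 to 224 calls with group alone, 284 to 920 with barcode set and 3 to 270 for B against T cells, the 3 without ginkgetin replicate 1. In marker-dense cells these were 0 to 2 and 0 to 114 calls. The 0 with barcode set came without vehicle replicate 3 or ginkgetin replicate 3, where the group term rests on replicates 1 and 2. The marker-dense limit, and its alternatives, were added after the data were seen.

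With a replicate block there were 675 calls in all cells of the rule and 20 in marker-dense cells. Deviations of same-numbered libraries correlated at 0.24, -0.0051 and 0.48 for replicates 1, 2 and 3, and vehicle replicate 2 correlated best with ginkgetin replicate 1 (0.30), so the numbers were not taken to pair the libraries.

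The difference in B cell share over all 6 libraries was above 0 under every alternative run, but within replicates 1 and 2 it was -0.32 with 6 or more marker UMIs and -0.027 with 250 to 5000 UMIs. The log2 B to T ratio was -0.024 to 1.15 without 1 library at a time. Nrp1 turned from -0.083 to 2.13 in marker-dense cells and 0.90 with 6 or more marker UMIs (-0.90 to 0.39 without 1 library at a time), and Cd69 turned to -0.063 with 250 to 5000 UMIs. Serpinb6a turned from -1.53 to 0.95, 1.08 and 0.89 with 250 to 5000 UMIs, with other-lineage cells left out and in marker-dense cells, and its difference from T cells from -0.66 to 1.77, 2.04 and 1.77, and 0.70 with 6 or more marker UMIs. The Cr2 share difference turned to -0.641 and -2.71 percentage points at 2000 UMIs and unthinned and to -1.04 in replicates 1 and 2 alone (-2.36 to 3.0 without 1 library at a time), and the Fcer2a difference to -1.02 in replicates 1 and 2 (-2.15 to 8.77). The causes were not tested.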
